A study of Rattus norvegicus with 30 samples.

Results

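Mitochondrial ribosomal proteins build the mitoribosome, the ribosome inside mitochondria. They are made from nuclear genes and imported, and the mitoribosome translates the few mitochondrially encoded subunits of the respiratory chain and ATP synthase. Its large subunit joins amino acids and its small subunit reads the messenger RNA. Some of its proteins descend from bacterial ribosomal proteins and others are found in mitochondria alone. Hepatocytes are rich in mitochondria. Phenobarbital, a barbiturate used against seizures, is a classic inducer of drug-metabolizing enzymes in rat liver.

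The genes were taken as all probe sets (groups of short oligonucleotides on the array that read 1 transcript) with a single symbol that starts with Mrpl, for the large subunit, or Mrps, for the small one, followed by a digit. Each gene was represented by the probe set with the highest mean log2 signal over all arrays. This gave 76 genes, 49 Mrpl and 27 Mrps, of 14218 genes named by 1 symbol, and 100 probe sets of 31099. Structures of pig and human mitoribosomes place Mrps18a and Mrps30 in the large subunit in spite of their names, so that 51 members belong to the large subunit and 25 to the small. Of the 76, 44 have a counterpart in the bacterial ribosome, 30 have none, and Mrps18a and Mrps18b are paralogs of Mrps18c, which has one. The annotation spells mrpl9, mrpl11 and mrpl24 in lower case, and they were included.

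The arrays measured primary hepatocytes of male Sprague Dawley rats, bought frozen, grown on collagen under Matrigel and dosed on day 3 of culture. The 6 groups, each of 5 wells grown as independent cultures, were vehicle, 300 µM and 3000 µM phenobarbital harvested 24 h after dosing, and the same doses harvested 48 h after dosing. The vehicle is named water in the titles and culture medium in another field. No animals or donors are numbered, so spread between wells is not spread between animals. In each comparison a gene rose or fell if limma's moderated test gave a Benjamini-Hochberg adjusted p under 0.05 over all 16596 probe sets tested. Each change below is the difference of mean log2 signals, treated minus vehicle unless another pair is named.

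The hepatocyte markers Alb, Serpina1, Ttr, Apoa1, Fgb and Hnf4a had mean log2 signals of 12.7 to 16.4. Markers of other liver cells were set against the filter on low signals (8.58). All 3 lymphocyte markers (Cd3e, Cd3d and Ptprc) and 4 of 5 endothelial markers were below it, and Kdr (8.98) passed. Of 3 cholangiocyte markers Epcam (13.28) passed, while Krt19 (7.34) and Krt7 (3.98) were below it. Of 6 macrophage markers Cd14 (13.60), Cd68 (9.88), Clec4f (8.99) and Csf1r (8.61) passed, the last close to the filter, while Cd163 (7.06) and Adgre1 (4.97) were below it. Of 8 stellate cell and fibroblast markers 4 passed, with means of at most 9.94. At 3000 µM 4 of the 6 hepatocyte markers fell at 24 h and 2 at 48 h. Their summed signal was 319808 to 348720 in 3000 µM wells and 376859 to 504756 in vehicle wells at 24 h, and 313856 to 546567 in 3000 µM wells and 326707 to 391913 in vehicle wells at 48 h. No tested marker of stellate or endothelial cells passed at 3000 µM, Epcam fell at 48 h, and of the macrophage markers 1 rose and 1 fell at 24 h and 1 rose at 48 h. Their part in the results below was not tested. A bulk array cannot tell fewer cells of a type from less RNA per cell.

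At 3000 µM and 48 h, well 4 differed from the other wells of its group. Its 18 hybridization control probe sets, which read RNA added in the laboratory, averaged a log2 signal of 14.57, and well 1 of the 24 h vehicle group had 14.14, against at most 13.35 in the other 28 wells. The log2 ratio of 3′ to 5′ signal of Gapdh and beta-actin was 1.09 in well 4 at 3000 µM, 48 h, and at most 0.88 in all other wells. The mean log2 signal of the 76 members, taken relative to the 30-array mean, was -0.18 in this well and 0.07 to 0.12 in the other 4 wells of its group. Counts and changes at 3000 µM, 48 h use all wells unless they are given as without well 4.

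**Figure D1:**
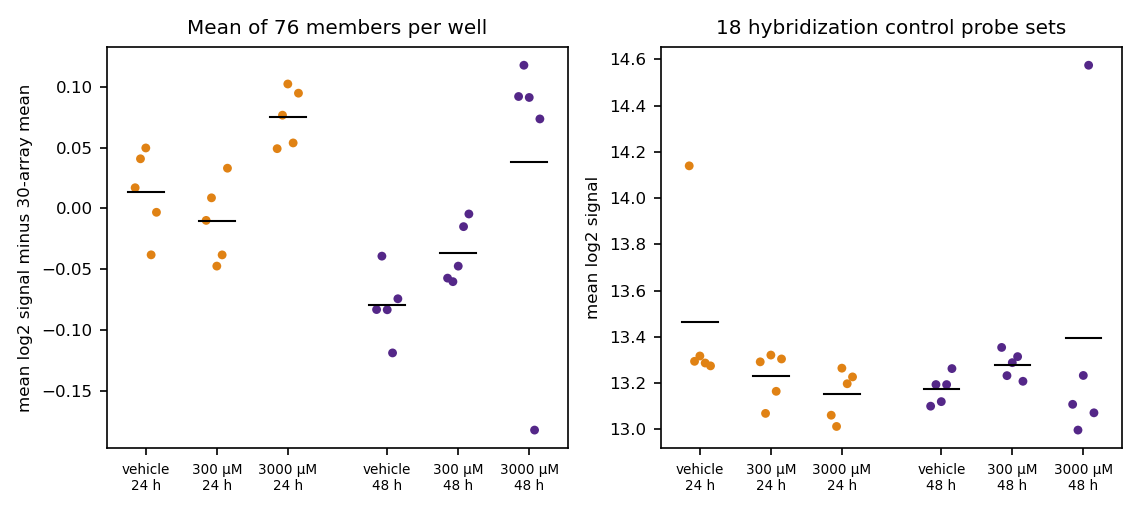
Left, the mean log2 signal of the 76 mitochondrial ribosomal protein genes in each well, relative to the mean over all 30 arrays. Right, the mean log2 signal of 18 hybridization control probe sets. Points are wells (orange, 24 h; purple, 48 h) and lines are group means. Well 4 at 3000 µM, 48 h lies at -0.18 on the left and 14.57 on the right, away from its group in both.

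The 76 members were abundant transcripts. All passed the filter, which kept probe sets whose highest group mean reached a log2 signal of 8.58. Mean log2 signals ran from 10.13 for Mrpl38 to 15.19 for Mrpl17, and the SD between wells of a group, pooled over the 6 groups, from 0.04 to 0.29 with a median of 0.12. After Mrpl17 the highest means were those of Mrpl55 (14.36), Mrpl41 (14.35), Mrpl27 (14.29) and Mrpl33 (14.03). Above Mrpl38 the lowest were Mrps27 (10.43), Mrps31 (10.95), Mrps2 (11.37) and Mrps5 (11.46). Signals of different probe sets depend on their sequences, so this order is not an order of RNA amounts.

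At 3000 µM and 48 h the mitochondrial ribosomal protein genes moved mainly upward, by small amounts. Of 76 members 35 rose, 8 fell and 33 did not pass the test, against 19.5% of all probe sets tested that rose and 19.9% that fell. In percent, 46.1% of the members rose and 10.5% fell. Because the members are abundant, the share among the 8731 probe sets with a mean signal at least that of Mrpl38 is a closer background: 28.08% of those rose and 25.85% fell. The median change of the members was 0.15, and that of all probe sets tested was -0.00. Of the members that changed, 10 did so by at least 1.25-fold and only Mrpl38 by at least 1.5-fold. Without well 4, 43 members rose and 5 fell (backgrounds 19.1% and 20.3%), the median change was 0.20, and 34 of the 35 rises and 5 of the 8 falls were among these calls. Mrpl10 was the rise lost, and Mrps28, Mrps31 and Mrps6 were the falls lost. Without vehicle well 1, 30 members rose and 5 fell. Fitted on the compared groups alone, 23 rose and 3 fell, the falls being Mrpl36, Mrpl49 and Mrpl50. Centred on array medians, 34 rose and 4 fell, and Mrps25, Mrps28, Mrps31 and Mrps6 no longer passed. For the settings other than well 4 left out, no share of all probe sets is given.

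By subunit, the shares at 48 h are read against the probe sets at least as bright as Mrpl38, the dimmest member. Of those 28.08% rose and 25.85% fell. Of the 51 large-subunit proteins 26 rose and 3 fell, with a median change of 0.16 (30 and 3 without well 4, median 0.20), which is 51.0% and 5.88%. Of the 25 small-subunit proteins 9 rose and 5 fell, with a median of 0.12. Their share of rises, 36.0%, is nearer to that background, and their 5 falls in 25 are close to the 19.9% of all probe sets. Without well 4, 13 of the 25 rose and 2 fell, with a median of 0.17. Among proteins with a bacterial counterpart 19 of 44 rose and 4 fell (43.2% and 9.09%, with 24 and 2 members without well 4). Among those with no counterpart in the bacterial ribosome 14 of 30 rose and 4 fell (46.7% and 13.3%, with 17 and 3 members without well 4). The medians were 0.13 and 0.16, or 0.19 and 0.20 without well 4. The difference between subunits or between classes was not tested.

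The largest change at 48 h was that of Mrpl38, a mitochondria-specific protein of the central protuberance, a projection at the top of the large subunit. Its log2 signals were 10.25, 10.27, 10.39, 11.56 and 10.91 in the 3000 µM wells, against 9.80, 9.87, 9.96, 9.93 and 9.81 in the vehicle wells. All 5 treated wells lay above all vehicle wells, with well 4 the highest. Mrpl38 rose by 0.80 (1.75-fold, SE 0.154, limma adjusted p 7.61e-05). Without well 4 the change was 0.58 (1.50-fold, adjusted p 0.000117). At 24 h the change was 0.35 and did not pass (adjusted p 0.0867).

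Mrpl47, the counterpart of bacterial L29 beside the exit of the tunnel through which new proteins leave, changed at both times. It had 12.59, 12.91, 12.87, 12.62 and 12.84 in the 3000 µM wells at 24 h, against 12.33, 12.30, 12.48, 12.37 and 12.33 in the vehicle wells, with no overlap. At 48 h it had 12.73, 12.70, 12.69, 11.90 and 12.66 in the 3000 µM wells, against 12.05, 12.12, 11.98, 11.95 and 11.997 in the vehicle wells. There well 4 lay below all vehicle wells and the other 4 treated wells above them. The change was 0.40 at 24 h (1.32-fold, adjusted p 0.00322) and 0.52 at 48 h (1.43-fold, adjusted p 0.000168), and without well 4 the change at 48 h was 0.68 (1.60-fold, adjusted p 3.55e-09), the largest rise of any member.

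Mrpl45, which anchors the mitoribosome to the inner membrane, rose by 0.25 at 24 h (adjusted p 0.000839) and by 0.42 at 48 h (adjusted p 2.81e-07). Its log2 signals were 12.95, 13.25, 13.05, 13.13 and 12.93 in the 3000 µM wells at 48 h, against 12.74, 12.56, 12.60, 12.74 and 12.55 in the vehicle wells, and the groups did not overlap at either time. Without well 4 the change at 48 h was 0.41.

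Mrpl12, the counterpart of the bacterial stalk protein L7/L12 that draws translation factors to the ribosome, has also been reported to bind the mitochondrial RNA polymerase. Its log2 signals were 13.98, 13.93, 13.97, 13.87 and 14.05 in the 3000 µM wells at 48 h, against 13.59, 13.38, 13.59, 13.56 and 13.59 in the vehicle wells. The groups stood apart, well 4 included. Mrpl12 rose by 0.42 (1.34-fold, adjusted p 3.66e-08), or by 0.44 without well 4, and by 0.23 at 24 h (adjusted p 0.000599). A second Mrpl12 probe set, much dimmer at a mean of 8.66, had changes of 0.39 at 24 h and 0.28 at 48 h that did not pass.

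Of the other large rises at 48 h, Mrps18a had 0.42 (0.53 without well 4), mrpl9 0.38 (0.47), Mrpl35 0.38 (0.38), Mrps5 0.37 (0.41), Mrps9 0.32 (0.40) and Mrpl37 0.32 (0.36). Of these mrpl9, Mrpl35, Mrps5 and Mrps9 are counterparts of the bacterial proteins with the same numbers, and Mrpl37 is specific to mitochondria. Mrps5, which lines the entry path of the messenger RNA, also rose at 24 h (0.38, adjusted p 0.000729), with no overlap between 3000 µM and vehicle wells at either time.

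Mrpl36 moved the other way at both times. It is the counterpart of bacterial L36, a small zinc-binding protein of the large subunit. Its log2 signals were 12.38, 12.37, 12.39, 12.30 and 12.35 in the 3000 µM wells at 24 h, against 12.98, 12.88, 12.89, 12.82 and 12.86 in the vehicle wells. At 48 h they were 12.33, 12.37, 12.28, 11.94 and 12.14 in the 3000 µM wells, against 12.63, 12.68, 12.70, 12.73 and 12.61 in the vehicle wells. Every treated well was below every vehicle well at both times. Mrpl36 fell by 0.53 at 24 h (0.693-fold, SE 0.0619, adjusted p 3.39e-08) and by 0.46 at 48 h (0.727-fold, adjusted p 2.79e-07), or by 0.39 at 48 h without well 4, which was the lowest.

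Mrpl50 and Mrpl49, mitochondria-specific proteins of the large subunit, were the next largest falls at 48 h. Mrpl50 had 13.49, 13.27, 13.31, 12.99 and 13.37 in the 3000 µM wells at 48 h, against 13.68, 13.76, 13.57, 13.66 and 13.62 in the vehicle wells. It fell by 0.37 (adjusted p 1.76e-05), or by 0.30 without well 4, and by 0.18 at 24 h (adjusted p 0.0325), when the groups overlapped. Its second probe set fell by 0.43 at 24 h and by 0.81 at 48 h, further than the chosen one. Mrpl49 had 12.005, 11.78, 11.93, 11.80 and 11.64 in the 3000 µM wells at 48 h, against 12.23, 12.09, 12.12, 12.08 and 12.16 in the vehicle wells, again without overlap. It fell by 0.31 (0.30 without well 4, adjusted p 0.000255), while its second probe set, almost as bright, had -0.13 and did not pass (adjusted p 0.24). At 24 h Mrpl49 had -0.03.

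**Figure D2:**
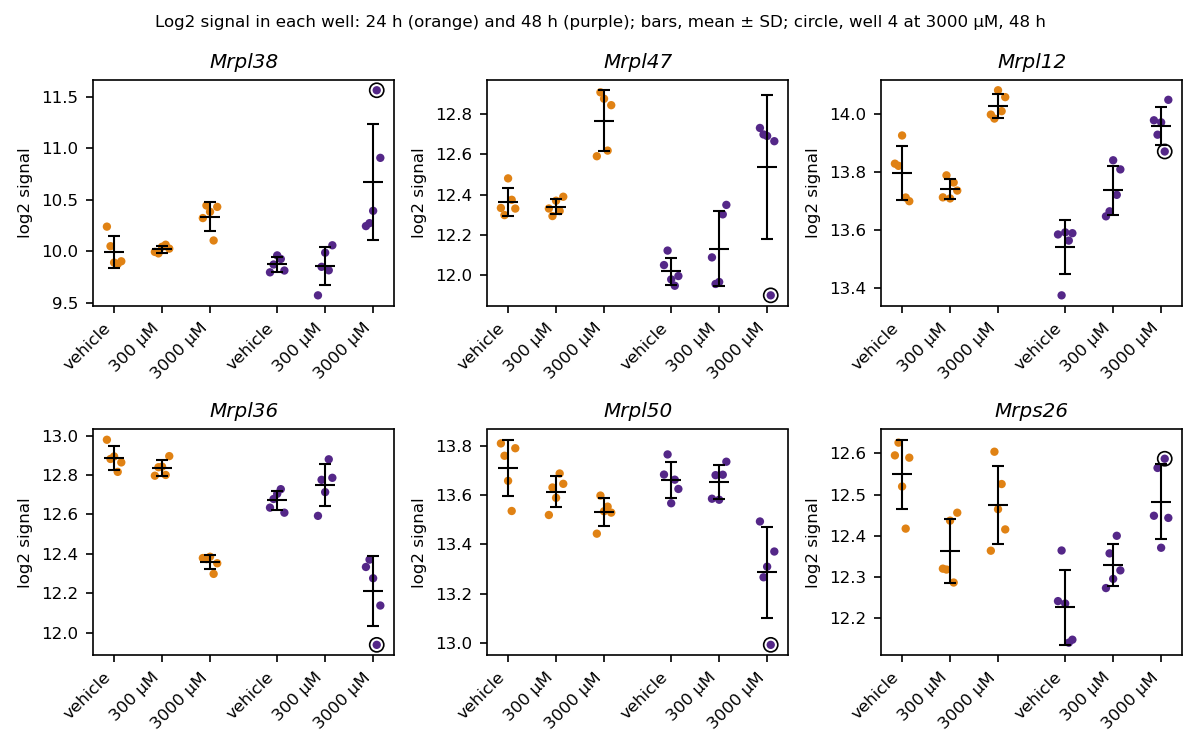
Log2 signal of Mrpl38, Mrpl47, Mrpl12, Mrpl36, Mrpl50 and Mrps26 in each well (orange, 24 h; purple, 48 h), with the mean and SD of each group as bars. The circle marks well 4 at 3000 µM, 48 h. Mrpl36 wells at 3000 µM lie below all vehicle wells at both times, and the circled Mrpl47 well (11.90) lies below the other wells of its group.

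Promoter windows are shown for the members with the largest rises and falls at 48 h that had one, so that their letters can be compared. Each window runs from 250 bases before the annotated start to 50 bases after it, 5′ to 3′ on the gene's strand, from RefSeq (GRCr8). Of the 76 members 62 had a window, on 18 chromosomes. Capitals mark matches, on either strand, to 4 short cores known from promoters of nuclear genes for mitochondrial proteins or of stress-response genes: GCATGCG (NRF1), CCGGAAG (ETS factors), AAGATGG (YY1) and TGATGCA (ATF4). The ETS and YY1 cores can share the letters AAG. The Mrpl47 window is chr2:117447312-117447611 (minus strand), that of Mrpl45 chr10:82804789-82805088 (plus), that of Mrpl36 chr1:31795072-31795371 (minus), that of Mrpl50 chr5:68668038-68668337 (minus) and that of Mrpl49 chr1:212779278-212779577 (minus).
Mrpl47: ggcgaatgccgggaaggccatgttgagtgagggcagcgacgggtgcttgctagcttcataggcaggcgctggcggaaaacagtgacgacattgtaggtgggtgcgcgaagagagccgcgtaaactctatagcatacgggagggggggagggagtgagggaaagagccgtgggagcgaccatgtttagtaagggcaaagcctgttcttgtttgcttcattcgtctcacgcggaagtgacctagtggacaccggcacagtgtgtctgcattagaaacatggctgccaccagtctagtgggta
Mrpl45: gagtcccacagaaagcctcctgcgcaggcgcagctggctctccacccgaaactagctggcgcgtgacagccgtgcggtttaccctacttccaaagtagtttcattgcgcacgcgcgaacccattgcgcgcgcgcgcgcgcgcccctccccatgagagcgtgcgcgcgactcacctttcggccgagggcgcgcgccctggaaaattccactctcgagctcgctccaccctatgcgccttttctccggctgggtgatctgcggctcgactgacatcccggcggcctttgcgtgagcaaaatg
Mrpl36: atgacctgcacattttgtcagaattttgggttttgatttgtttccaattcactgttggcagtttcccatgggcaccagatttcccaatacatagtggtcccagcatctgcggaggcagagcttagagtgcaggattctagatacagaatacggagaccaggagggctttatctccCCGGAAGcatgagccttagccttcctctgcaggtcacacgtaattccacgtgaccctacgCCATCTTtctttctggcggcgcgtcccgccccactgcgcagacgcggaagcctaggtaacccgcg
Mrpl50: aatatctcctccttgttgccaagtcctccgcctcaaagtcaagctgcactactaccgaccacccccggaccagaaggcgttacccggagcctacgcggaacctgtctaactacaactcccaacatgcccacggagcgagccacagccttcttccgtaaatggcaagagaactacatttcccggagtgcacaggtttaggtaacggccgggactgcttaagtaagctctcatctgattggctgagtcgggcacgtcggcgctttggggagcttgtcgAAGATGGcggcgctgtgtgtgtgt
Mrpl49: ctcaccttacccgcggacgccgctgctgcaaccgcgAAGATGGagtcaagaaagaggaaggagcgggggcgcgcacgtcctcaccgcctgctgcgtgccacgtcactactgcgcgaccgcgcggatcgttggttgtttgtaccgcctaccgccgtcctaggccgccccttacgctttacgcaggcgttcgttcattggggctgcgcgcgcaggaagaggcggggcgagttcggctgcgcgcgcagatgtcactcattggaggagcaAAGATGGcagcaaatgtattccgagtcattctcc

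None of the 4 cores is in the Mrpl47 or Mrpl45 window. The Mrpl36 window holds an ETS core and, on the other strand, a YY1 core. The Mrpl50 window holds a YY1 core close to its 3′ end, and the Mrpl49 window holds the YY1 core at 2 places. Over the 62 member windows 32.3% held the ETS core, 24.2% the YY1 core, 9.68% the NRF1 core and 1.61% the ATF4 core. The shares among all 27457 windows were 9.22%, 7.3%, 3.54% and 2.76% in the same order, and among the 8240 genes with a probe set tested they were 19.1%, 8.91%, 6.36% and 1.89%. The YY1 core was in 4 of 7 windows of members that fell at 48 h, in 5 of 28 of those that rose and in 6 of 27 of those that did not pass. Without well 4 these counts were 3 of 5, 8 of 35 and 4 of 22. The ETS core was in 3 of 7, 6 of 28 and 11 of 27, and without well 4 in 2 of 5, 9 of 35 and 9 of 22. The difference between these shares was not tested. These counts describe letters and say nothing of whether a factor binds.

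Starts of 18 members lay within 1000 bases of the start of a gene on the other strand. Mrps11 and Mrpl46 face each other across 234 bases on chromosome 1, and their shared stretch is shown because both rose at both times; it was chosen after their values were seen, and the call of Mrpl46 at 48 h depends on the setting. The window is that of Mrps11, chr1:142117014-142117313 (plus), and holds none of the 4 cores.
Mrps11: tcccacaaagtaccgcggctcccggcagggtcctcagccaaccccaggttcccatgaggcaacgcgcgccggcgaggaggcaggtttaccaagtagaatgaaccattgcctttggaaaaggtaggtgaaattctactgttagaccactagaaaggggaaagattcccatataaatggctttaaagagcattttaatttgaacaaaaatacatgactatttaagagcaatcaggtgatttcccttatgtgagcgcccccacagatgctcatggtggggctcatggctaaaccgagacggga

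Mrps11, the counterpart of bacterial S11, rose by 0.30 at 24 h (adjusted p 0.0053) and by 0.24 at 48 h (adjusted p 0.0192). Mrpl46, a mitochondria-specific protein of the large subunit, rose by 0.34 (adjusted p 0.000477) and 0.19 (adjusted p 0.0445). In the wells of 3000 µM, 48 h, Mrps11 had 12.84, 12.62, 12.83, 12.41 and 12.77 and Mrpl46 had 12.28, 12.31, 12.26, 11.75 and 12.19, so that well 4 was the lowest for both. Without it Mrps11 rose by 0.31 and Mrpl46 by 0.29 at 48 h. The 48 h call of Mrpl46 was lost in 13 settings (adjusted p up to 0.18), among them quantile normalization, centred medians, no filter, the compared groups alone and the replicate block of running numbers. That of Mrps11 was lost in 5 (adjusted p up to 0.0605). The neighbour of Mrpl47 is Ndufb5, a complex I subunit 244 bases away, which rose by 0.21 at 48 h (adjusted p 0.00069). The neighbour of Mrpl18 is the cytosolic chaperonin gene Tcp1, which rose by 0.26 (Mrpl18 0.18). Mrps18b rose by 0.25 while its neighbour Ppp1r10, a regulator of a protein phosphatase, fell by 0.43 (adjusted p 0.0427). Of the 18 neighbours 13 had a probe set tested. Of these 13 neighbours 5 rose and 2 fell at 48 h, against 19.5% and 19.9% of all probe sets. Mrps11 and Mrpl46 are counted from both sides. In 4 of the 13 cases member and neighbour changed in the same direction, and in 1 in opposite directions. In 2 the neighbour changed alone: Klc4, a kinesin light chain gene, fell by 0.78 beside Mrpl2 (-0.11, adjusted p 0.429), and the proteasome gene Psma2 rose by 0.21 beside Mrpl32 (-0.08, adjusted p 0.414). Without well 4 the named neighbours kept their direction and call. Shares for other pairs of facing genes are not given, so the counts of pairs are not read as a result.

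At 3000 µM and 24 h fewer members were called than at 48 h. Of 76 members 15 rose (19.7%), 7 fell (9.21%) and 54 did not pass, against 17.3% of all probe sets tested that rose and 14.8% that fell, and against 25.06% and 19.95% of those at least as bright as Mrpl38. The share that rose lay between these backgrounds, and the share that fell lay below both. The median change was 0.08, and 0.01 over all probe sets. The largest rises were those of Mrpl47, Mrps5, Mrps18b (0.34), Mrpl46, Mrps11, Mrpl19 (0.26), Mrpl45, Mrpl12, the small-subunit protein gene Mrps22 (0.22) and Mrps30 (0.20). The 13 members with all 3000 µM wells above all vehicle wells, and the 5 with all below, stood against 13.2% and 11.4% of all probe sets. At 48 h 14 were above and 3 below (11.5% and 12.7% of all probe sets), and with well 4 left out 36 were above and 3 below (15.2% and 15.6%).

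The falls at 24 h beside Mrpl36 were close to the threshold. They were Mrpl48 (-0.24, adjusted p 0.0364), Mrps25 (-0.23, 0.0366), Mrpl14 (-0.23, 0.0224), Mrpl50, Mrps23 (-0.18, 0.0294) and Mrpl27 (-0.17, 0.0226). Mrpl14 and Mrpl27 are counterparts of bacterial proteins, at the face toward the small subunit and near the site where amino acids are joined, and the others are specific to mitochondria. Without vehicle well 1, whose hybridization controls stood high, 11 members rose and 5 fell. Without the filter on low signals 13 rose and 3 fell. Centred on array medians in place of the authors' scaling, 20 members rose and Mrpl36 alone fell. The centring raised the median change of all probe sets by 0.075. Shares of all probe sets that changed are not given for these settings, so their counts have no background here. Leaving out single wells brought the falls to 2 without vehicle well 2, to 3 without vehicle well 3 or 5 or 3000 µM well 5, and to 4 without 3000 µM well 2, 3 or 4.

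**Figure D3:**
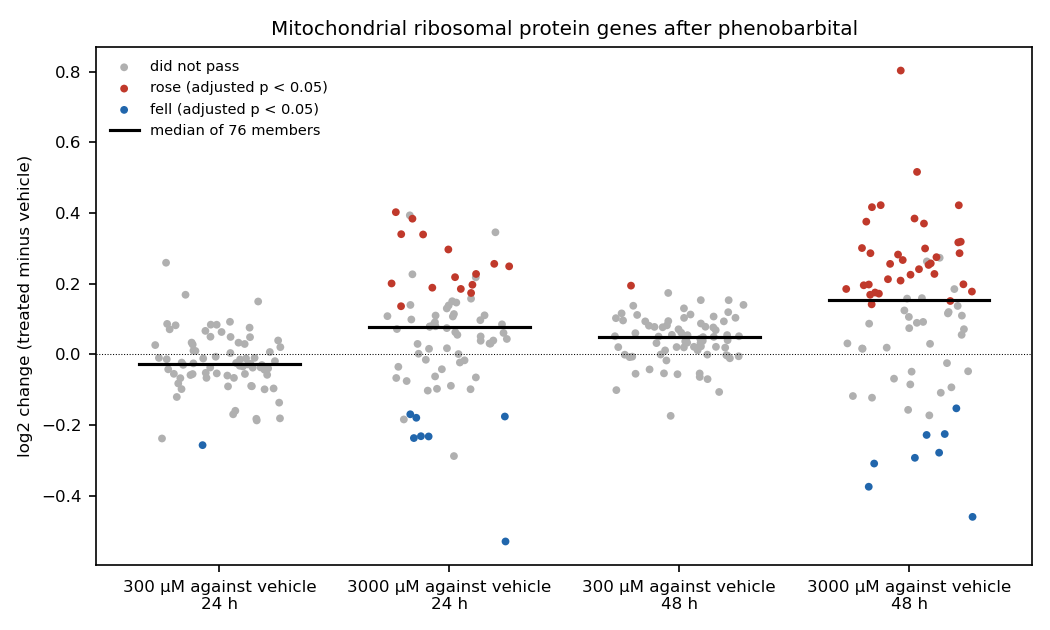
Log2 change of each of the 76 members in the 4 comparisons with vehicle (1 point per gene, spread sideways at random). Red points rose, blue points fell, grey points did not pass the test, and lines are medians. The medians at 3000 µM are 0.08 at 24 h and 0.15 at 48 h, and the points at 300 µM centre near 0.

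The 2 times share no wells. The overlap of calls and the correlation below are not given for all probe sets, so neither is read as a trait of the members. All 15 members that rose at 24 h also rose at 48 h, where they were 42.9% of the 35. Mrpl36, Mrpl50 and Mrps25 fell at both times, which is 42.9% of the falls at 24 h and 37.5% of those at 48 h. The fall of Mrps25 was lost in 10 settings at each time and that of Mrpl50 in 8 at 24 h, among them centred array medians, no filter on low signals and single wells left out. Without well 4 all 15 rises were again among those at 48 h (34.9% of 43), as were the same 3 falls (60.0% of 5). Of the 15 rises, 6 were lost at 24 h and 7 at 48 h in at least 1 setting. The 6 members that lost neither call were Mrpl45, Mrpl47, Mrps15, Mrps18b, Mrps30 and Mrps5. None of these has a second probe set above the filter, so the second probe set setting was no test of them. At 48 h Mrpl46 was lost in 13 settings, mrpl24 in 6, Mrpl19 and Mrps11 in 5 each, Mrps22 in 4, and Mrpl12 and Mrpl51 with the second probe set. No member was called in opposite directions, and 29 were called at neither time. Across the 76 members the changes at the 2 times correlated with Pearson's r of 0.725 and Spearman's rho of 0.732, a description in which all points of a time share the same 10 wells (0.724 and 0.742 without well 4).

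**Figure D4:**
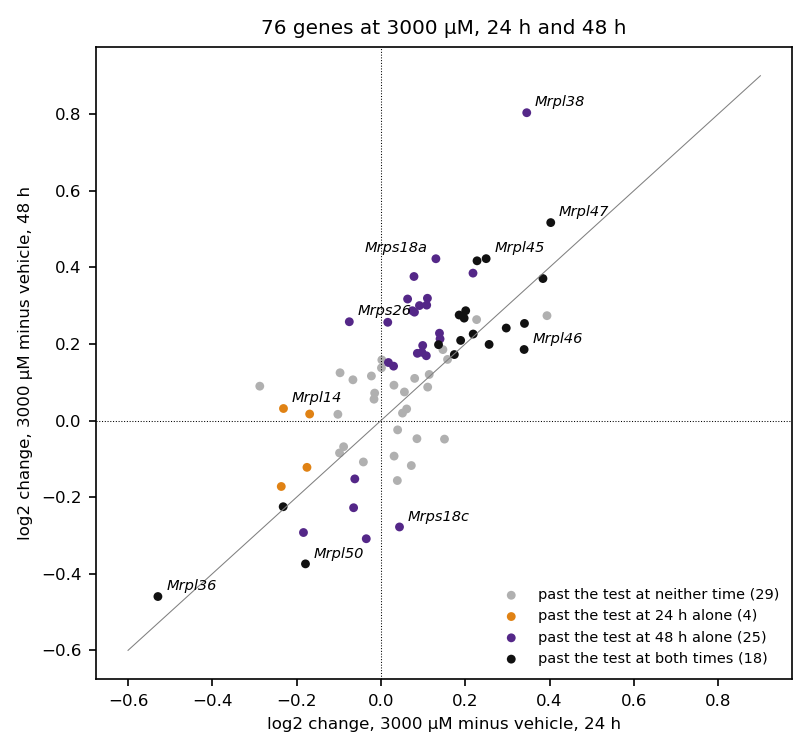
Log2 change at 3000 µM against vehicle for each member at 24 h (x) and 48 h (y), with the line of equal change. Black points passed the test at both times (18), purple at 48 h alone (25), orange at 24 h alone (4) and grey at neither (29). Mrpl36 is the lowest point at both times and Mrpl38 lies farthest above the line.

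A test of the difference between the 2 times, 48 h minus 24 h, passed for Mrps26 alone, against 1.38% of all probe sets higher and 2.77% lower. Mrps26 is a mitochondria-specific protein of the small subunit. Its log2 signals at 48 h were 12.45, 12.56, 12.37, 12.59 and 12.44 in the 3000 µM wells, against 12.24, 12.36, 12.23, 12.14 and 12.15 in the vehicle wells, with no overlap. At 24 h they were 12.36, 12.60, 12.46, 12.53 and 12.42 in the 3000 µM wells, against 12.60, 12.63, 12.52, 12.42 and 12.59 in the vehicle wells, which overlapped. The change was 0.26 at 48 h (adjusted p 0.000575) and -0.08 at 24 h (adjusted p 0.36), and the effects differed by 0.33 (SE 0.0828, adjusted p 0.0193). The means at 3000 µM were 12.48 at 48 h and 12.47 at 24 h, and those of vehicle 12.22 at 48 h and 12.55 at 24 h. Without well 4 of 3000 µM, 48 h, 5 members passed (1.81% of all probe sets higher, 2.94% lower): Mrps26, Mrps18a (0.40, adjusted p 0.00393), Mrpl37, Mrpl53 and Mrps16. Without well 1 of that group 1 member was higher and 2 lower, without well 3 it was 1 and 1, and without well 4 of the 24 h vehicle group 2 were higher. Centred on array medians, or fitted on the compared groups only, none passed.

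Mrps18a, Mrps18b and Mrps18c are the 3 paralogs of the bacterial protein S18. Mrps18b, in the small subunit, rose at 24 h (0.34, adjusted p 6.25e-06) and 48 h (0.25, adjusted p 0.000262, and 0.31 without well 4), and its 24 h signals were 13.93, 13.98, 13.996, 14.12 and 13.98 in the 3000 µM wells, against 13.70, 13.58, 13.71, 13.65 and 13.68 in the vehicle wells. Mrps18a, in the large subunit, had 13.52, 13.73, 13.59, 13.09 and 13.57 in the 3000 µM wells at 48 h, against 13.03, 13.03, 13.17, 13.06 and 13.11 in the vehicle wells. It rose at 48 h (adjusted p 3.16e-05), with well 4 alone inside the vehicle range, and had 0.13 at 24 h (adjusted p 0.204). Mrps18c, which takes the place of S18 in the small subunit, had 12.91, 12.78, 12.71, 12.29 and 12.48 in the 3000 µM wells at 48 h, against 12.89, 12.88, 13.06, 12.78 and 12.95 in the vehicle wells. It fell by 0.28 (adjusted p 0.00724), with overlap, and by 0.19 without well 4 (adjusted p 0.0385). The call was lost with the compared groups alone and with its second probe set (adjusted p up to 0.234). At 24 h it had 0.04, and its second probe set had -0.22 at 48 h and did not pass. Differences between the paralogs were not tested.

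Mrps30 rose at both times, by 0.20 at 24 h (adjusted p 0.00145) and 0.29 at 48 h (adjusted p 1.21e-05, and 0.30 without well 4), with no overlap between 3000 µM and vehicle wells at either time. Mrpl58, a large-subunit protein related to release factors that frees stalled chains, had 0.06 at 24 h (95% interval -0.08 to 0.19) and 0.07 at 48 h (-0.06 to 0.21), and passed at neither time. The remaining falls at 48 h were Mrps28 (-0.29), Mrps31 (-0.23), Mrps25 (-0.23) and Mrps6 (-0.15), all with overlapping wells.

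Of the 18 genes with several probe sets, 14 had more than 1 tested. At each time 5 of these had another probe set with a change of opposite sign to that of the chosen one, and in no gene did both pass. Mrpl10 had 0.20 (adjusted p 0.0414) at 48 h on the chosen probe set and -0.04 on the other. Mrps14 had 0.18 (adjusted p 0.0374, and 0.26 without well 4) and -0.11, and Mrpl40 had 0.26 (adjusted p 0.00176) and -0.23. Mrpl57 had 0.09 on the chosen probe set at 48 h, while the other fell by 0.25 (adjusted p 0.037). The chosen probe set of Mrps27, an RNA-binding protein of the small subunit, had 0.39 and 0.27 and did not pass. The other 2 Mrps27 probe sets rose at 48 h by 0.58 and 1.52, and the dimmer of these also by 1.29 at 24 h. The mean log2 signal of this dimmer probe set over all arrays, 8.16, was below the filter. It was tested because its highest group mean reached the filter, a selection that can favour large changes. Its rises are therefore not read as a result for Mrps27. Mrpl51 rose on 2 of its 4 probe sets, by 0.21 and 0.49 at 48 h.

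At 300 µM the members changed little. At 24 h no member rose and Mrpl52 fell, against 1.72% of all probe sets that rose and 1.27% that fell, and the median change was -0.03. The 300 µM wells were all below the vehicle wells for Mrpl52 and Mrps6 and all above for no member (2.52% and 2.78% of all probe sets). At 48 h Mrpl12 rose and no member fell (0.813% and 0.723% of all probe sets), and the median was 0.05. All 300 µM wells were above all vehicle wells for 5 members, Mrpl28, Mrpl27, Mrpl53, Mrps15 and Mrpl12, and below for none (2.22% and 2.63%). At an unadjusted p under 0.05 there were 6 members at each time. The share of all probe sets at that level is not given, so the count is not read as a result. The 95% intervals of single members reached a median of 0.15 to either side, so that changes smaller than this were mostly not detectable. These intervals are not adjusted for the number of probe sets tested, while a call is, so larger changes could also be missed. The largest upward change at 300 µM, 24 h, was 0.26 and did not pass.

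Mrpl52, a mitochondria-specific protein of the large subunit, had 12.46, 12.52, 12.38, 12.44 and 12.52 in the 300 µM wells at 24 h, against 12.83, 12.60, 12.62, 12.88 and 12.68 in the vehicle wells. The groups did not overlap, and the change was -0.26 (0.837-fold, adjusted p 0.0429). At 3000 µM and 24 h Mrpl52 had 0.00 (95% interval -0.15 to 0.15). The Mrpl52 call was lost without 300 µM well 1, 2, 3, 4 or 5, without vehicle well 1, 4 or 5, and with its second probe set. Mrpl12 had 13.65, 13.66, 13.84, 13.72 and 13.81 in the 300 µM wells at 48 h, against 13.59, 13.38, 13.59, 13.56 and 13.59 in the vehicle wells, with vehicle well 2 the lowest. It rose by 0.19 (1.14-fold, adjusted p 0.0385), a call lost without vehicle well 1, 2 or 4 or without 300 µM well 3, 4 or 5. The effect of 300 µM did not pass a test of a difference between 48 h and 24 h for any member in limma (background 0.0%). At an unadjusted p under 0.05 there were 6 members, again with no share of all probe sets beside them.

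Between the doses, 3000 µM against 300 µM, 17 members were higher and 2 lower at 24 h (13.9% and 12.2% of all probe sets). At 48 h 24 were higher and 6 lower (17.9% and 16.9%). Of probe sets at least as bright as Mrpl38, 21.11% were higher and 16.48% lower at 24 h, and 25.32% and 22.88% at 48 h. The members' shares were 22.4% and 2.63% at 24 h, the former near that background, and 31.6% and 7.89% at 48 h. The medians of 3000 µM minus 300 µM were 0.10 and 0.08. All 3000 µM wells were above all 300 µM wells for 19 members and below for 2 at 24 h (12.3% and 10.1% of all probe sets), and above for 9 and below for 3 at 48 h (10.6% and 10.8%). Without well 4, 34 were higher and 5 lower at 48 h (17.7% and 17.2%), with a median of 0.15, and without well 1 of the 3000 µM group 22 were higher and 10 lower. With the compared groups alone, 14 were higher and 4 lower at 48 h. At 24 h Mrpl47 (0.43), Mrpl46 (0.37), Mrpl19 (0.29), Mrpl45 (0.29), mrpl9 (0.28), Mrpl12 (0.28), Mrpl52 (0.26), Mrps18b (0.25), Mrps11 (0.23) and Mrps22 (0.23) led the members higher at 3000 µM, and Mrpl36 (-0.48) and Mrpl14 (-0.32) were lower. At 48 h Mrpl38 (0.82), Mrps2 (0.44), Mrps18a (0.42), Mrpl45 (0.42), Mrpl47 (0.40), mrpl9 (0.36), Mrps9 (0.36), Mrps11 (0.35), Mrps5 (0.32) and Mrpl35 (0.29) led those higher. Mrpl36 (-0.54), Mrpl49 (-0.38), Mrps28 (-0.37), Mrpl50 (-0.37), Mrps18c (-0.30) and Mrps25 (-0.22) were lower. The Mrps25 call was lost in 12 settings, one of them without well 4 (adjusted p 0.0569). Without well 4 the other members named at 48 h kept their direction and call, with 0.60 for Mrpl38, 0.34 for Mrps2 and 0.56 for Mrpl47. These comparisons use the same 3000 µM wells as those with vehicle.

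In vehicle wells the members were somewhat lower at 48 h than at 24 h. The median of 48 h minus 24 h was -0.09, against 0.03 over all probe sets tested. Of 76 members 1 rose and 6 fell (4.05% and 3.15% of all probe sets). Of probe sets at least as bright as Mrpl38, 5.42% rose and 5.54% fell, and the 6 falls were 7.89% of the members. All 48 h vehicle wells were above all 24 h vehicle wells for 1 member and below for 13 (4.56% and 3.71%). Mrps6, the counterpart of bacterial S6, had 13.39, 13.34, 13.22, 13.38 and 13.42 in vehicle wells at 48 h, against 12.93, 13.03, 13.21, 12.93 and 12.94 at 24 h. It rose by 0.34 (1.27-fold, adjusted p 0.000361), without overlap. Mrpl47 (-0.34), Mrps26 (-0.32), Mrpl12 (-0.26), Mrpl49 (-0.23), Mrpl40 (-0.22) and Mrpl36 (-0.22) fell. The calls of Mrpl47 and Mrpl40 were each lost in 11 settings and that of Mrpl36 in 5, among them centred medians and single wells left out. Centred on array medians the count was 1 up and 3 down, and it was the same without vehicle well 1 or 3 of 24 h or well 1 of 48 h. Without well 4 of the 3000 µM, 48 h group, which enters this comparison through the shared estimate of spread, 1 member rose and 15 fell (5.25% and 4.57% of all probe sets).

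Genes that work with the mitoribosome were looked at in the same comparison of 3000 µM with vehicle, and the lists are given by their counts. Each share is read against the 17.3% of all probe sets that rose and 14.8% that fell at 24 h and the 19.5% and 19.9% at 48 h, or the 25.06% and 19.95%, and 28.08% and 25.85%, of those at least as bright as Mrpl38. Of 5 mitoribosomal proteins with other symbols, 2 rose at 24 h and 4 at 48 h (3 without well 4), none fell, and the medians were 0.16 and 0.21. Chchd1 rose by 0.32 and 0.29, and Aurkaip1 by 0.19 and 0.30. Of 26 assembly factors, GTPases, helicases and RNA methyltransferases that build the mitoribosome, 5 rose and 1 fell at 24 h and 8 rose and 1 fell at 48 h (13 and 2 without well 4). With all wells the rises, 19.2% and 30.8% of the list, were near the background, and the falls were 3.85% at both times. Without well 4 the 13 rises in 26 at 48 h, with a median of 0.20, stood against 19.1% of all probe sets. The GTPase gene Gtpbp10 rose by 0.54 and 0.48 and Mpv17l2 by 0.40 and 0.55, while the rRNA methyltransferase gene Mettl15 fell by 0.54 and 0.81. Of 15 translation factors 4 rose and 2 fell at 24 h and 4 rose and 1 fell at 48 h (5 and 1 without well 4). The rises were 26.7% at both times and the falls 13.3% and 6.67%. The release factor gene Mtrf1 rose by 1.94 at 24 h and by 0.68 at 48 h, and also by 1.46 at 300 µM, 24 h (adjusted p 0.00074), and the elongation factor gene Gfm1 fell by 0.32 and 0.34. Of 11 mitochondrial aminoacyl-tRNA synthetases, which load tRNAs, 2 rose and 1 fell at 24 h and 4 rose and none fell at 48 h (5 and 1 without well 4), led by Yars2 (0.50) at 24 h and Sars2 (0.75) at 48 h. The rises were 18.2% and 36.4% of this list.

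The import machinery brings the members into mitochondria. Of 25 import genes 10 rose and 2 fell at 24 h, and 12 rose and 1 fell at 48 h (16 and 1 without well 4), with medians of 0.16 and 0.22. The rises were 40.0% and 48.0% of the list and the falls 8.0% and 4.0%, against the shares of all and of bright probe sets given above. Tomm70, an outer-membrane receptor, rose by 0.47 at 24 h, and Timm50 of the inner-membrane channel by 0.62 at 48 h. Timm21 fell by 0.52 and 0.40. Of 13 chaperones and proteases 3 rose and 2 fell at 24 h and 5 rose and 3 fell at 48 h (6 and 3 without well 4), which is 23.1% and 15.4%, and 38.5% and 23.1%. The protease gene Lonp1 rose by 0.64 and 1.01 and the chaperone gene Trap1 fell by 0.56 and 0.68. Of 18 genes for mitochondrial DNA expression and upkeep, 2 rose and 3 fell at 24 h and 1 rose and 5 fell at 48 h (3 and 5 without well 4), and the DNA polymerase subunit gene Polg2 fell by 0.67 and 0.73. The falls were 16.7% and 27.8% of that list, near the background. Of 10 regulators of mitochondrial biogenesis 3 rose at 24 h, and 2 rose and 1 fell at 48 h (2 and 2 of 9 without well 4). These 2 rises in 10 at 48 h are near the background. Esrra rose by 0.72 and 0.92 and Myc by 0.65 and 0.78, and Yy1 fell by 0.24 at 48 h (adjusted p 2.2e-05). Of the 40 genes of these and the following lists eligible to be named at 48 h, 39 kept their call and direction without well 4, and the cytosolic ribosomal protein gene Rps27l lost its call (0.35 with all wells, 0.17 without well 4, adjusted p 0.133).

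The mitoribosome makes the mitochondrially encoded part of the respiratory chain. Of 76 nuclear genes for the respiratory chain and ATP synthase, none rose and 40 fell at 24 h, and 4 rose and 13 fell at 48 h (7 and 11 without well 4), with medians of -0.16 and -0.04. The 13 falls at 48 h were 17.1% of the list, against 19.9% of all probe sets. The members' counts in the same comparisons were 15 up and 7 down, and 35 up and 8 down. Of 44 cytosolic ribosomal proteins 1 rose and 4 fell at 24 h and 19 rose and none fell at 48 h (13 and 0 without well 4), with medians of -0.11 and 0.15. The rises were 2.27% and 43.2% of that list and the falls 9.09% and 0.0%. The difference between times, 48 h minus 24 h, was higher for 6 of the 76 respiratory chain genes and 8 of the 44 cytosolic ribosomal proteins. These are 7.89% and 18.2% of the lists, against 1.38% of all probe sets higher and 2.77% lower. Counts of the lists without well 4 are not given for this difference. Differences between lists were not tested.

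**Figure D5:**
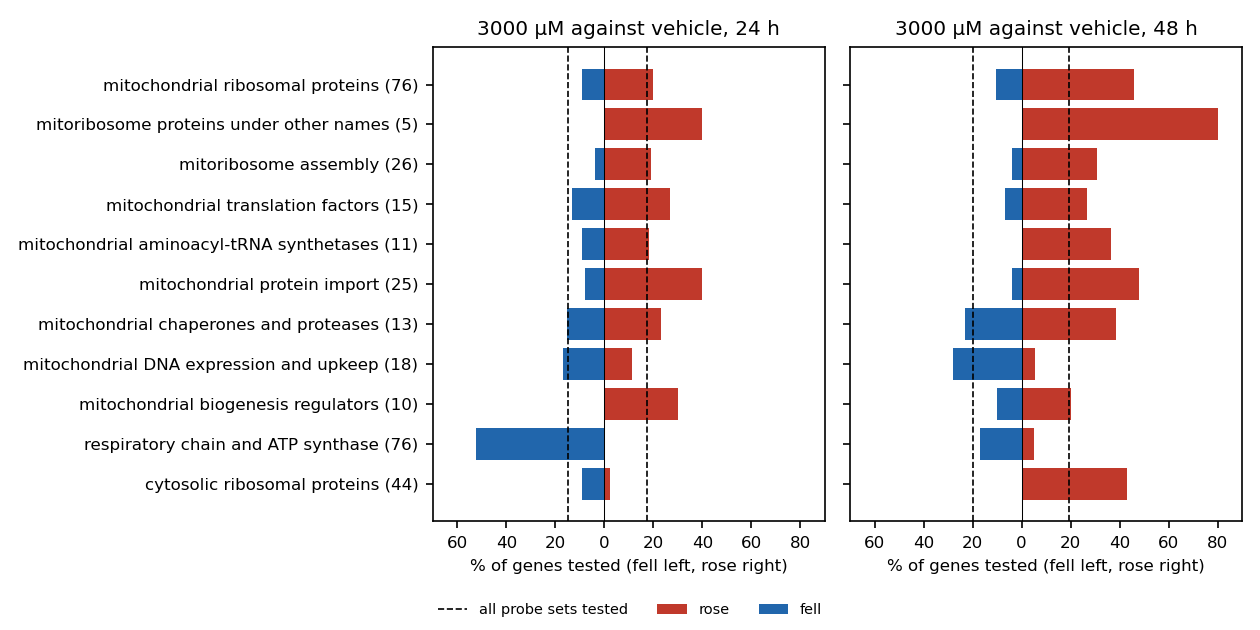
Percent of the tested genes of each list that rose (red, to the right) or fell (blue, to the left) at 3000 µM against vehicle, at 24 h and 48 h, with the number of genes tested in parentheses. Dashed lines give the percent of all probe sets tested (17.3 and 14.8 at 24 h, 19.5 and 19.9 at 48 h). At 48 h 46.1% of the mitochondrial ribosomal protein genes rose, and at 24 h no respiratory chain gene did.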

How the data were processed

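Gene expression was measured on 30 arrays, 1 per culture well, in 6 groups of 5 wells. Each deposited value is the linear intensity of 1 probe set, summarised by the authors with MAS5 per the submitters' processing notes, in which no version was found. Means trimmed by 2% at both ends were 1500.6 to 1500.7 on every array, as a scaling by 1 factor per array gives, and array medians were 349 to 424.9. MAS5 detection calls were not used here, and the number of arrays limits the precision.

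Signals were put on the log2 scale with no added constant. Probe sets whose highest group mean reached the median of all log2 values (8.58, a signal of 384) were tested, which left 16596 of 31099, with 57 control probe sets not tested. limma 3.58.1 in R 4.3.3 fitted 6 group means over 30 arrays (lmFit, contrasts.fit, eBayes with trend and robust estimation), and the 2-sided p-values were adjusted by Benjamini-Hochberg over all probe sets tested in a comparison. The code was tested on simulated data. Symbols came from GEO's platform annotation.

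Members named with values are, in each comparison, the 10 largest rises and 10 largest falls past the test, the 5 highest and 5 lowest in signal, genes whose probe sets disagree, and Mrpl12, Mrpl58, Mrps18a, Mrps18b, Mrps18c and Mrps30. Members outside this rule, such as Mrpl2, Mrpl18 and Mrpl32 beside their neighbours, were named after their values were seen. Of other lists up to 3 rises and 3 falls were eligible in a comparison. The members and lists were chosen with earlier results of these data known. The titles' running numbers form sets of 6 wells, 1 per group. Deviations of wells of a set from their group means correlated with a median of 0.00 (-0.06 to 0.09), so the numbers were not used to pair wells. Alternatives were other normalizations, filters, fits and probe sets, and leaving out wells.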

Additional observations from a re-analysis of the deposited data

Results flagged for a closer look

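Well 4 of the 3000 µM, 48 h group was the lowest of its group by a gap that 5 wells seldom show, in the mean of all members (-0.18 relative to the 30-array mean), in Mrpl47 (log2 signal 11.90) and in Mrpl52 (12.49). Over all members and groups the same criterion marked 39 of 456 sets of 5 wells (8.55%), 18 of them on this well, and chance marks about 1 in 20. Vehicle well 2 at 48 h was likewise the lowest for Mrpl12 (13.38). The response of Mrps26 to 3000 µM differed between the times, 48 h minus 24 h, by 0.33 on the log2 scale (limma adjusted p 0.0193).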

How the results depend on the processing

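At 3000 µM the count of members changed stayed within 1.5 times the reported one in all settings at 24 h (22 reported, 15 to 22 without single wells). At 48 h (43 reported) it was 33 to 48 without single wells, and 26 when the compared groups alone were fitted. For 3000 µM against 300 µM it was 15 to 20 at 24 h (19 reported) and 26 to 39 at 48 h (30 reported) without single wells, and 18 at 48 h with the compared groups alone. At 300 µM, 24 h, the 1 call became 0 with centred medians, without the filter, with the second probe set and with the replicate block of running numbers, and 3 with array weights (0 to 1 without single wells). At 300 µM, 48 h, the 1 call became 0 with quantile normalization, centred medians, no filter, the compared groups alone and the second probe set (0 to 1 without single wells). Vehicle at 48 h against 24 h (7 reported) gave 4 with centred medians or the second probe set, 12 with array weights, 11 without the 2 wells whose hybridization controls stand apart, and 4 to 8 without single wells of its own 2 groups. The difference in the 3000 µM effect between times (1 reported) gave 0 with centred medians, the compared groups alone and the second probe set, 3 with array weights, 6 without those 2 wells, 2 with the replicate block, and 1 to 5 without single wells. The running numbers share no more than a number between wells, and the block gave 16 rises and 7 falls at 3000 µM, 24 h and 34 and 7 at 48 h. The difference in the 300 µM effect gave 0 to 0 without single wells. Leaving out the members spelt in lower case, an alternative chosen after seeing the data, kept every count within 1.5 times. Of 124 calls of members over the comparisons, 69 were lost in at least 1 setting. With the second probe set 4 changed sign and did not pass: at 3000 µM, 48 h, Mrpl40 (-0.23), Mrpl10 (-0.043) and Mrps14 (-0.11) against vehicle, and Mrpl40 (-0.085) against 300 µM. Other settings changed no sign of a called member. Second probe sets of 4 genes, Mrps26 among them, were below the filter, so that 72 members were left there and the 0 for the difference between times is no test of Mrps26. Counts of classes, motifs, neighbours, lists and both times without well 4 were added after seeing the data. Shares of all probe sets are given for the main setting and without well 4, so counts in other settings have no background here. The causes were not tested. Fewer samples enter the fits of the compared groups alone, which at 24 h gave more calls. These were 27 at 3000 µM against vehicle (22 reported) and 28 at 3000 µM against 300 µM (19 reported). All values are from wells of 1 study, and probe sets of 1 gene can differ. Log2 changes under about 0.15 were mostly not detectable, and larger ones could also be missed, above all at 300 µM.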
